A study of Homo sapiens with 14 samples.

Results

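IFITM1, IFITM2, IFITM3, IFITM10, LY6E and BST2 are the 6 genes described here, all found by their symbols among the 24489 rows of each of 2 expression tables. They were selected on their TPM in the 4 groups and on their changes in both comparisons, so these are given as a description, with no p-value. The cells were U251MG, an established human glioblastoma line, whose genotype the labels give as WT in every group. RNA-seq covered 4 groups of 3 libraries. The radioresistant group had received X-rays in 30 daily fractions of 2 Gy, 60 Gy in all, and the control group was the line without that course per the labels. The shIFI16 group was radioresistant cells carrying a short hairpin RNA against IFI16, a nuclear DNA sensor, and the shNC group was radioresistant cells carrying a hairpin named as the negative control. The series set out to ask what IFI16 does in radioresistance. The radioresistant and control libraries share one table and the hairpin libraries the other, each in TPM (a transcript level per length, scaled so that a library sums to 1000000), so every comparison was made inside its table; such values keep no sequencing depth. The shNC libraries, radioresistant by label, stood far from the radioresistant libraries in these genes, though not in these genes alone. An ATAC-seq library, which reads open chromatin, was made from each of radioresistant and control cells.

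IFITM1, IFITM2 and IFITM3 encode small membrane proteins induced by interferon. IFITM1 sits mainly at the cell surface and IFITM2 and IFITM3 mainly in endosomes, where they hinder the fusion of enveloped viruses with the cell membrane. BST2, also called tetherin, is held in the membrane at both ends, by a transmembrane helix and by a glycosylphosphatidylinositol (GPI) lipid anchor, and ties budding virions to the cell that made them. LY6E is a GPI-anchored surface protein of the LY6/uPAR family that restricts entry of coronaviruses and can aid that of other viruses. Interferon acts on such genes through the complex ISGF3, which binds the interferon-stimulated response element (ISRE); another element of such promoters is the gamma-activated site (GAS).

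Of the 6 members, 3 matched an entry of the RefSeq promoter table used, IFITM1, IFITM3 and BST2, and their promoters are shown for the response elements they hold. The promoters of IFITM2, IFITM10 and LY6E were not analysed here. The 3 sequences were taken from RefSeq on GRCh38.p14, run 5′ to 3′ from 250 bases before to 50 bases after the annotated start, and lie at chr11:313790-314089 on the plus strand for IFITM1, chr11:320811-321110 on the minus strand for IFITM3 and chr19:17405581-17405880 on the minus strand for BST2. Capitals mark matches to the core, GAAA then 2 bases of any kind then GAAA, searched on both strands.
IFITM1: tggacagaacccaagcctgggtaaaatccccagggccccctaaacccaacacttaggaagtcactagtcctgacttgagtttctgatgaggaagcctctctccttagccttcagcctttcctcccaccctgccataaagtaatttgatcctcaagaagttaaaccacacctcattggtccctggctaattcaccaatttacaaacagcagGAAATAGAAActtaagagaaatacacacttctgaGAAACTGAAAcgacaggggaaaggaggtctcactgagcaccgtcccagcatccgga
IFITM3: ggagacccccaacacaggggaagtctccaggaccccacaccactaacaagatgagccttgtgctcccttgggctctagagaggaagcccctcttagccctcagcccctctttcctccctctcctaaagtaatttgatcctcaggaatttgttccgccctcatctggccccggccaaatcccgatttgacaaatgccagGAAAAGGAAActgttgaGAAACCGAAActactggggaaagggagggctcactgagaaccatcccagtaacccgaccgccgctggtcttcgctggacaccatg
BST2: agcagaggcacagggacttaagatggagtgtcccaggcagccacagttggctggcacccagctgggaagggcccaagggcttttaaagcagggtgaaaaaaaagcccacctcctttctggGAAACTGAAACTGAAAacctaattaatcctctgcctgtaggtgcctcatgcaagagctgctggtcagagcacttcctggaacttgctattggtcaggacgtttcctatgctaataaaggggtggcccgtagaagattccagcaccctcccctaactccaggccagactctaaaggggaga
IFITM1 had a match 40 to 31 bases before the start and a match that began 6 bases before it. IFITM3 had its 2 matches 52 to 43 and 35 to 26 bases before the start, so that the paralogs carry the pair at different spacings. In BST2 both matches overlapped, 130 to 121 and 124 to 115 bases before the start. A match occurred in 996 of 27305 RefSeq promoters of the same length (3.65%), and 2 or more in 74 (0.271%). Of 46 promoters found for other interferon-stimulated genes, 30 held it (65.2%). The GAS letters TTCNNNGAA were found 2 times in BST2 and 1 time in IFITM1, and not in the IFITM3 window. In IFITM1 they overlapped the ISRE core nearest the start. In BST2 the match 136 to 128 bases before the start overlapped an ISRE core, and the match 58 to 50 bases before the start did not. Of all the promoters, 7.88% held the GAS letters. A match describes letters and is no evidence that a factor bound there.

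IFITM1 (chromosome 11, 314040 to 315272, hg38) had 4114, 3914 and 2951 TPM in radioresistant libraries, against 93.4, 109.8 and 88.5 TPM in control libraries. All 3 radioresistant libraries lay far above all 3 control libraries, and replicate 3 was the lowest of the radioresistant ones. The log2 change of TPM + 1 was 5.21 (SE 0.143), the 10th largest rise among 13127 genes tested. In the hairpin table IFITM1 had 276, 313 and 313 TPM in shIFI16 libraries, against 117, 126 and 136 TPM in shNC libraries. These groups did not overlap either, and with IFI16 knocked down IFITM1 stood at 2.38 times its shNC mean (log2 change 1.24, SE 0.0705). In bulk RNA, more expressing cells and more RNA per cell cannot be told apart.

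IFITM2 (chromosome 11, 307816 to 309395), the least abundant of the 3 clustered genes, had 103, 90.3 and 65.0 TPM in radioresistant libraries, against 22.0, 23.2 and 27.8 TPM in control libraries. Its groups did not overlap, and the log2 change was 1.76 (SE 0.171), the smallest of the 5 members other than IFITM10. The shIFI16 libraries had 28.9, 25.8 and 29.8 TPM, against 10.2, 12.04 and 13.2 TPM in shNC libraries. The ratio of means was 2.39, close to that of IFITM1, and the log2 change was 1.19 (SE 0.106). IFITM1 and IFITM2 were thus the members that differed most between the hairpin groups. Counted from the largest rise, they were at ranks 102 and 111 among 12567 genes tested.

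IFITM3 (chromosome 11, 319676 to 320860), which acts on virus in endosomes, was the most abundant member in all 12 libraries. It had 5582, 5191 and 4486 TPM in radioresistant libraries, against 402, 462 and 487 TPM in control libraries. It ranked 9th, 10th and 12th among all genes in the radioresistant libraries, and the log2 change was 3.49 (SE 0.122). The shIFI16 libraries had 765, 817 and 880 TPM, against 663, 660 and 721 TPM in shNC libraries. The lowest shIFI16 library stood just above the highest shNC library, and the log2 change was 0.27 (SE 0.0647). IFITM1, IFITM2 and IFITM3 are close in sequence, and how reads were shared among them, their pseudogenes and the antisense gene that overlaps IFITM3 is not given in the sources used here. The split of level among the 3 is uncertain to that extent.

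IFITM10 (chromosome 11, 1732406 to 1750595) lies apart from the cluster and was close to the limit of what was measured. It had 3.13, 3.24 and 2.17 TPM in radioresistant libraries, against 0.300, 0.352 and 0.462 TPM in control libraries. It reached 1 TPM in no control library, so it entered the test through the radioresistant group and had to be higher there. The log2 change was 1.48 (SE 0.166), and with a pseudocount of 0.1 in place of 1 it was 2.64. IFITM10 had 0.389, 0.373 and 0.328 TPM in shIFI16 libraries, against 0.538, 0.653 and 0.478 TPM in shNC libraries. The shIFI16 libraries were all lower, opposite to the other members, but all 6 values were under the 1 TPM filter and the gene was not tested there.

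LY6E (chromosome 8, 143018529 to 143022409) had the largest log2 change of TPM + 1 of all 13127 genes tested, 6.85 (SE 0.137). That first place depended on the pseudocount of 1. With a pseudocount of 0.1, the interferon-stimulated genes RSAD2 and CMPK2 rose more than LY6E. Both were under 1 TPM in every control library. LY6E had 2415, 2123 and 1812 TPM in radioresistant libraries, against 15.8, 15.9 and 20.1 TPM in control libraries. Among all genes it ranked between 35 and 60 in radioresistant libraries, against 7035 to 8139 in control libraries, so the groups lay far apart. The shIFI16 libraries had 89.6, 93.9 and 86.2 TPM, against 79.8, 74.7 and 86.4 TPM in shNC libraries. The hairpin groups overlapped, with a log2 change of 0.16 (SE 0.0726).

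BST2 (chromosome 19, 17402939 to 17405630) had 3341, 2767 and 2829 TPM in radioresistant libraries, against 318, 344 and 297 TPM in control libraries. The groups did not overlap, and the log2 change was 3.21 (SE 0.114). In the hairpin table BST2 had 518, 581 and 617 TPM in shIFI16 libraries, against 483, 513 and 527 TPM in shNC libraries. The lowest shIFI16 value lay inside the shNC range, and the log2 change was 0.17 (SE 0.0681).

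**Figure D1:**
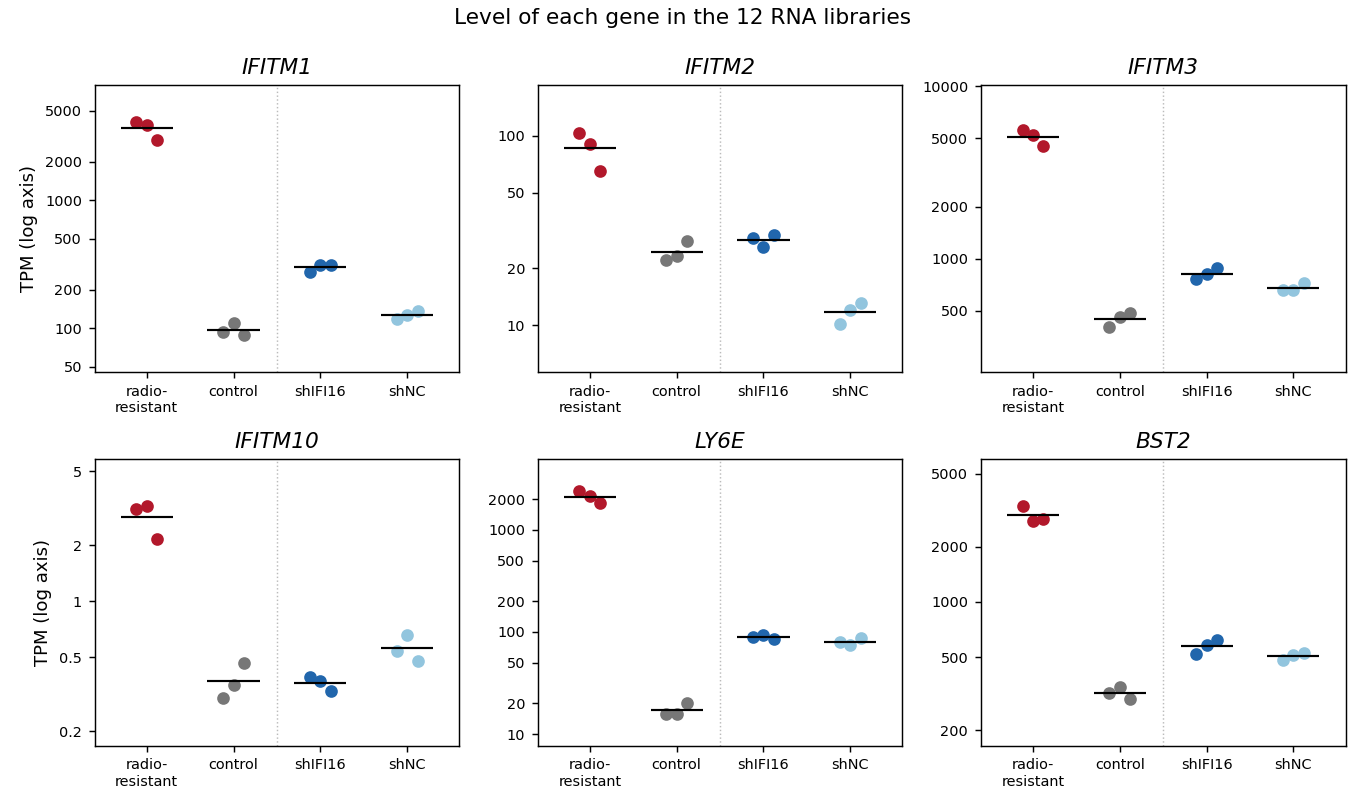
TPM of each of the 6 genes in each of the 12 RNA libraries on log axes, 3 points per group with a bar at the mean; the dotted line parts the 2 separately normalized tables. Radioresistant libraries stand highest for every gene. Within the hairpin table the shIFI16 points lie clear above the shNC points for IFITM1 and IFITM2 and just above them for IFITM3. For LY6E and BST2 the points of both hairpin groups overlap.

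All 6 members passed an adjusted p of 0.05 as higher in radioresistant cells, where 43.9% of the 13127 genes tested passed in either direction, 16.9% as higher and 27.0% as lower. Since the choice of members rests on both comparisons, nothing is read from that count or from the member counts that follow. IFITM10 is among the 6 although its direction was fixed by the filter. In all 6 the groups did not overlap, as was so, in the higher direction, for 21.5% of genes tested. Between hairpins 3 of the 5 members tested passed, IFITM1, IFITM2 and IFITM3, all higher in shIFI16 cells, where 32.9% of 12567 genes tested passed in either direction, 16.6% as higher and 16.3% as lower. These 3 were also the members whose hairpin groups did not overlap in that direction, as was so for 23.4% of genes tested. IFITM3 did not pass when libraries were scaled by median ratios. Whether replicates were grown apart is not stated in the labels, so p-values measure the spread between libraries, which may be technical. The knockdown rests on 1 hairpin, and its effects on targets other than IFI16 cannot be told apart from those on IFI16.

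The shNC cells are radioresistant by label, yet their levels of the members lay nearer to those of control cells. These values come from 2 tables normalized separately and carry no test. The gap was not particular to the members. Means of 51 other interferon-stimulated genes had a median of 134 TPM in radioresistant cells, 32.8 TPM in shNC cells and 18.0 TPM in control cells. Not all of these shared it, as IFIT2 averaged 41.1 TPM in radioresistant cells and 248 TPM in shNC cells. IFITM1 averaged 127 ± 9.10 TPM in shNC cells (SD, n = 3), which was 3.46% of the 3660 ± 622 TPM in radioresistant cells (n = 3) and 1.30 times the 97.2 ± 11.2 TPM in control cells (n = 3). LY6E in shNC cells, at 80.3 ± 5.87 TPM, was at 3.79% of the 2117 ± 302 TPM in radioresistant cells and at 4.65 times the 17.3 ± 2.45 TPM in control cells. IFITM3 in shNC cells, at 681 ± 34.3 TPM, was at 13.4% of the 5086 ± 556 TPM in radioresistant cells and at 1.51 times the 450.4 ± 43.6 TPM in control cells. BST2, at 508 ± 22.3 TPM, was at 17.0% of the 2979 ± 315 TPM in radioresistant cells and at 1.59 times the 320 ± 23.6 TPM in control cells. IFITM2 departed from this order, since its 11.8 ± 1.51 TPM in shNC cells was below the 24.4 ± 3.08 TPM in control cells.

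Ordered by mean, IFITM1, IFITM3, LY6E and BST2 ran radioresistant, shIFI16, shNC and control from highest to lowest. Neighbours in that order did not overlap for IFITM1 and IFITM3, while for LY6E and BST2 the shIFI16 and shNC ranges overlapped. For IFITM2 the order was radioresistant, shIFI16, control and shNC, with shIFI16 and control overlapping. For IFITM10 it was radioresistant, shNC, control and shIFI16, with control and shIFI16 overlapping. Together the 6 genes took 1.21 to 1.56% of all TPM in radioresistant libraries, against 0.0852 to 0.0955% in control libraries. They took 0.168 to 0.193% in shIFI16 libraries, against 0.135 to 0.148% in shNC libraries.

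The make-up of the chromosome 11 cluster also differed between the groups. The sum of IFITM1, IFITM2 and IFITM3 was 8832 ± 1191 TPM in radioresistant cells and 572 ± 47.2 TPM in control cells (SD, n = 3 each), and it was 1150 ± 76.4 TPM in shIFI16 cells and 820 ± 43.5 TPM in shNC cells. IFITM1 gave 41.3% of that sum in radioresistant cells and 17.1% in control cells. It gave 26.2% in shIFI16 cells and 15.4% in shNC cells, and in both pairs the ranges over libraries did not overlap. IFITM3 gave the rest but for a small part, 57.7% in radioresistant cells and 78.7% in control cells, and 71.4% in shIFI16 cells and 83.1% in shNC cells. IFITM2 never gave more than a few percent, with 0.967% in radioresistant cells and 4.26% in control cells, and 2.46% in shIFI16 cells and 1.44% in shNC cells. IFITM2 therefore had a smaller share in radioresistant than in control cells and a larger one in shIFI16 than in shNC cells.

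**Figure D2:**
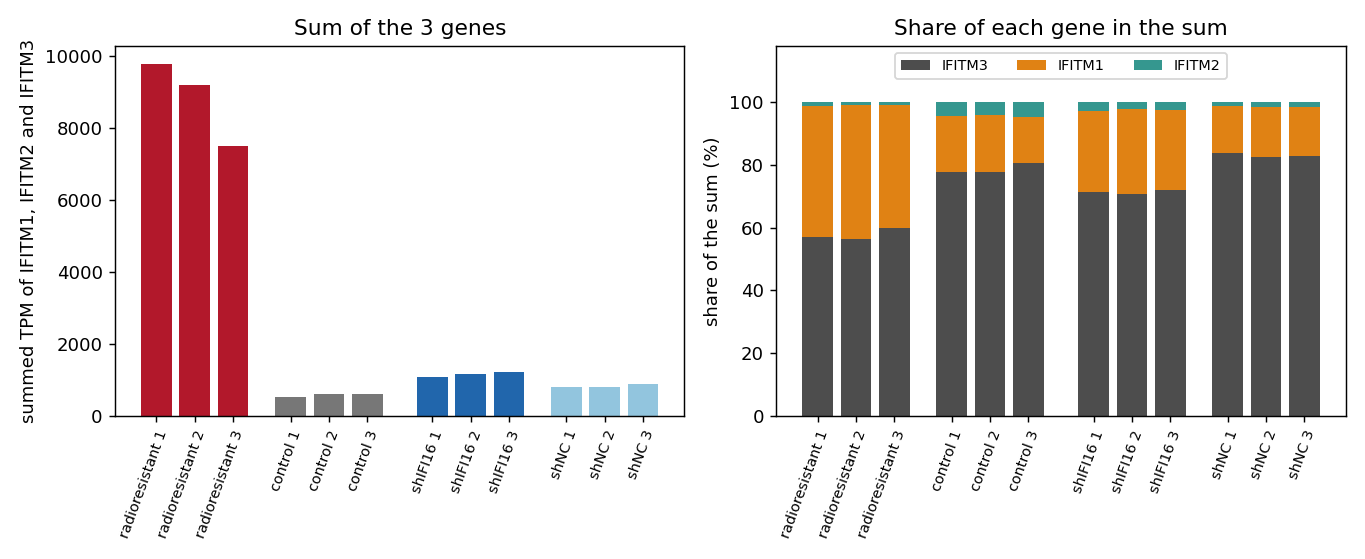
Left, summed TPM of IFITM1, IFITM2 and IFITM3 in each library, from 0; right, the percent of that sum from each gene. The radioresistant bars reach 7501 to 9799 TPM, and the orange IFITM1 part is widest there, next in shIFI16 libraries, and narrow in control and shNC libraries.

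The genes whose log2 levels followed each member most closely over the 12 libraries are given as a description. Pearson's r over these libraries was used, with 13423 genes compared. The points share tables and groups, and the 3 radioresistant libraries lie far from the rest. A high r therefore says mainly that a gene was high in the radioresistant libraries. IFITM3 and BST2 were each other's nearest genes (r = 0.996). LY6E was followed most closely by MX2 (0.993) and OAS1 (0.992), which encode an antiviral GTPase and a sensor of double-stranded RNA, and by CPA4 (0.991), a carboxypeptidase. IFITM1 was followed by PCDHAC2 (0.994), a protocadherin, by ATF4 (0.994), a transcription factor of the integrated stress response, and by POF1B (0.993). After each other, IFITM3 was followed by ATF4 (0.992) and XAF1 (0.990), and BST2 by OAS1 (0.995) and ATF4 (0.990). IFITM2 was followed by NAP1L2 (0.981), LDB2 (0.980) and DPYSL5 (0.972). Its r with the other members was 0.771 to 0.901. IFITM10 was followed by NLRC5 (0.991), ROS1 (0.990) and CD53 (0.989).

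Other interferon-stimulated genes also rose in radioresistant cells, and most fell after IFI16 knockdown. No tested member was lower there, but this was not particular to the members. Among the other genes OAS1 (log2 change 0.24), MX2 (0.19) and IFI6 (-0.02) were not called lower either. Of 53 listed genes 49 were tested, and all 49 rose in radioresistant cells. Their median log2 change was 2.75, beside -0.11 over all genes tested. Among the 49, 4 were under 1 TPM in every control library and had to differ, RSAD2 and CMPK2 included. RSAD2, the antiviral enzyme viperin, averaged 117 ± 14.9 TPM in radioresistant cells and 0.192 ± 0.0954 TPM in control cells, and CMPK2 changed by 6.25 (log2). ISG15, a ubiquitin-like modifier, averaged 7341 ± 799 TPM in radioresistant cells and 238 ± 17.5 TPM in control cells (limma, Benjamini-Hochberg adjusted p = 1.9e-09). After knockdown 32 of 50 fell and 3 rose, with a median of -0.46 beside 0.02 over all genes tested. OASL, an enhancer of RNA sensing, averaged 239 ± 12.6 TPM in shIFI16 cells and 507 ± 6.91 TPM in shNC cells (limma, adjusted p = 2.2e-09). IFIT2, which binds viral RNA, changed by -1.05 (limma, adjusted p = 1.2e-08), and the chemokine CXCL11 by -1.38 (limma, adjusted p = 7.1e-08). The 3 that rose, chosen after their values were seen, were MX1 (1.25), TRIM22 (0.38) and IFI27 (0.32), with limma adjusted p of 1.3e-05, 0.046 and 0.0085, and the count was 1 with no filter on low values and 2 without shNC replicate 3.

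**Figure D3:**
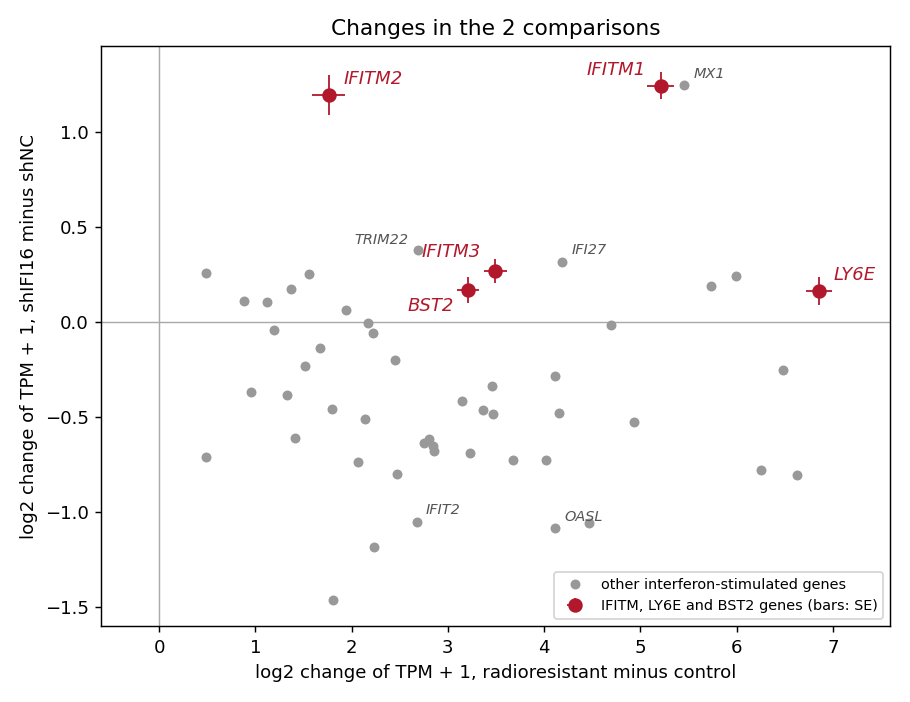
Log2 change of TPM + 1 of each gene in radioresistant against control cells (horizontal axis) and in shIFI16 against shNC cells (vertical axis); red points are the 5 members tested in both comparisons with SE bars, grey points the other interferon-stimulated genes. IFITM1 and IFITM2 lie near 1.2 on the vertical axis while IFITM3, LY6E and BST2 lie just above 0, and most grey points lie below 0.

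Of 18 interferon receptors and signalling genes tested, 5 rose and 5 fell in radioresistant cells (27.8% each, beside 16.9% and 27.0% over all genes). Among those that rose were the transcription factors IRF9 (1.34), STAT2 (0.79) and IRF1 (1.23) (log2, limma, adjusted p = 2.9e-05, 8.7e-04 and 3.2e-05). No gene of this list was called lower without control replicate 2 or without radioresistant replicate 3, and 2 were without replicate 1 of either group. After knockdown 2 rose, SOCS3 (0.78) and STAT3 (0.63), and 7 fell, among them IRF1 (-0.67; limma, adjusted p = 8.1e-06) and IRF9 (-0.27); 4 fell without any 1 of the shNC libraries. Of 21 interferon ligands, IFNB1, which encodes interferon beta, was at 3.90 ± 0.719 TPM in radioresistant cells and 0.226 ± 0.392 TPM in control cells, a direction fixed by the filter. IFNE changed by -0.53 (limma, adjusted p = 0.044), a call lost without any 1 library except control replicate 3 and under 4 of the other alternatives. IFNB1 averaged 12.6 ± 0.828 TPM in shIFI16 cells and 32.4 ± 2.21 TPM in shNC cells (log2 change -1.30, limma, adjusted p = 4.7e-08). IFNE (-0.53) and IFNL1 (-1.86) also fell (limma, adjusted p = 0.026 and 0.032), but neither passed without shNC replicate 3 or without shIFI16 replicate 2, and IFNL1 also lost its call without either other shNC library.

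Of 7 other restriction factors at membranes or on incoming virus, 4 rose in radioresistant cells (57.1%) and 2 fell (28.6%). Over all genes tested these shares were 16.9% and 27.0%. GBP5, which impairs the maturation of viral envelope proteins, rose by 2.65, while SERINC5 and SERINC3, which enter virions and lower their infectivity, fell by 0.96 and 0.89 on the log2 scale (limma, adjusted p = 3.2e-07, 1.8e-04 and 2.8e-04). After knockdown 2 rose, CNP (0.46) and NCOA7 (0.32), and 3 fell, with GBP5 at -0.84 (limma, adjusted p = 6.7e-05) and GBP2 at -0.42; NCOA7 was near the threshold (limma, adjusted p = 0.045), and 1 rose without shNC replicate 2 or 3 or without shIFI16 replicate 1 or 2. Of 11 genes whose products modify or bind IFITM proteins, none rose and 3 fell in radioresistant cells (27.3%, beside 27.0% of all genes tested), FYN (-0.92), which encodes a kinase that phosphorylates IFITM3, AP2M1 (-0.49), a subunit of the adaptor that takes IFITM3 from the surface, and VCP (-0.41); 6 fell without control replicate 3. After knockdown 1 of 11 rose, SETD7 (0.48), a methyltransferase that acts on IFITM3, and none fell; 4 rose without shIFI16 replicate 3.

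LY6E and BST2 carry a GPI anchor, and the genes that build and attach it did not follow them upward. Of 27 such genes 1 rose and 14 fell in radioresistant cells, with a median of -0.45 beside -0.11 over all genes tested. PGAP1, PGAP2 and PIGO changed by -1.07, -0.80 and -0.67 (limma, adjusted p = 3.4e-04, 9.0e-04 and 1.0e-03), and 9 fell without control replicate 2 or without radioresistant replicate 3. The gene that rose, PIGL (0.42), lost its call without control replicate 2 or without radioresistant replicate 1 or 3. After knockdown 5 rose (18.5%) and 6 fell (22.2%), beside 16.6% and 16.3% of all genes tested. PIGW (0.67), PIGB (-0.63) and PGAP2 (-0.42) led them, and 3 rose without shIFI16 replicate 2. Of 6 other LY6/uPAR genes tested, CD59, an inhibitor of complement, fell by 0.81 in radioresistant cells, LYPD1 by 0.74 and LYPD6 by 0.81, and LY6K (1.41) was higher by way of the filter. After knockdown LYPD3 (-1.60), PLAUR (-0.40) and CD59 (-0.34) fell and LYPD1 (0.24) rose, a call lost without shNC replicate 1 or shIFI16 replicate 2. Of 6 partners of BST2 tested, TAB1 (0.58), which joins the kinase complex that BST2 uses to signal, rose in radioresistant cells, and 2 fell without control replicate 3. After knockdown the clathrin adaptor gene AP2A1 (0.42) and the kinase gene MAP3K7 (0.30) rose; none fell, against 3 under median-ratio scaling, and MAP3K7 did not pass without shNC replicate 3 or shIFI16 replicate 2. Of the dispanin relatives of IFITM, PRRT2 (-0.86) fell in radioresistant cells, a call lost without radioresistant replicate 3, and TMEM91 had a log2 change of -0.16 (limma, adjusted p = 0.76).

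**Figure D4:**
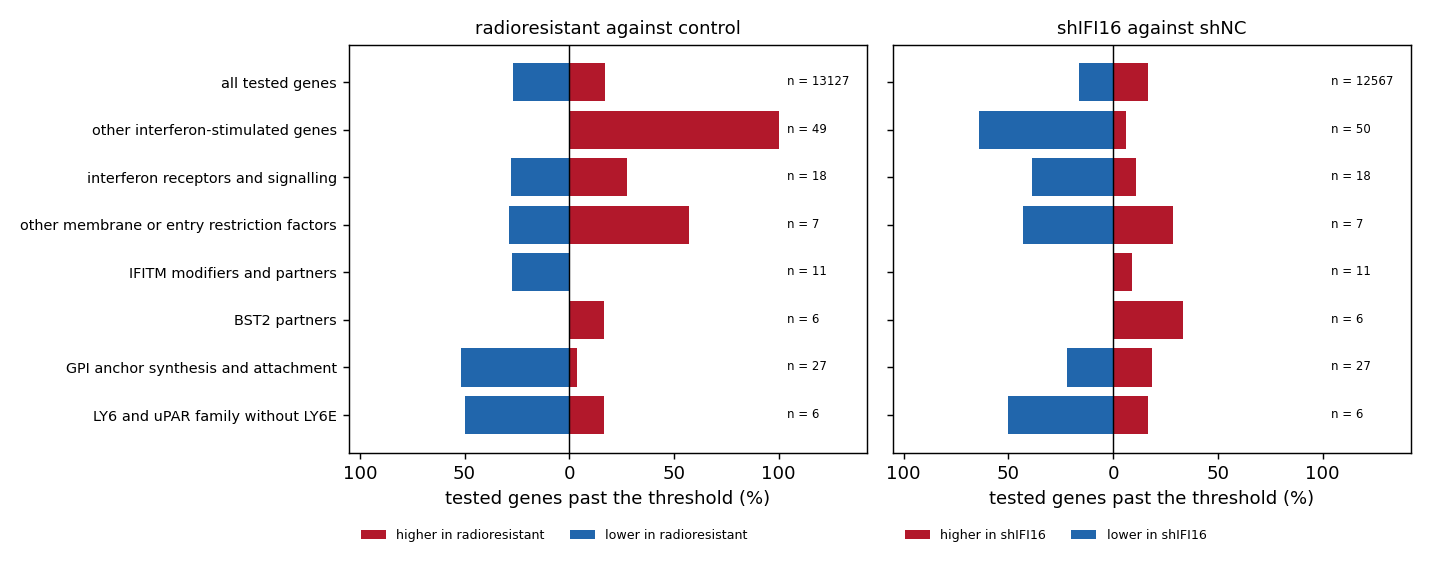
Percent of tested genes of each list that passed an adjusted p of 0.05 as higher (red, right) or lower (blue, left), for radioresistant against control cells and for shIFI16 against shNC cells, with the number tested and the share over all tested genes in the top row. The interferon-stimulated genes are all on the higher side in radioresistant cells and mostly on the lower side in shIFI16 cells.

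Neighbours of the members within 50 kb changed in both directions. BISPR, a long noncoding RNA that starts 56 bases from BST2 and is read in the other direction, averaged 25.9 ± 3.41 TPM in radioresistant cells and 6.78 ± 2.19 TPM in control cells (log2 change 1.82, SE 0.203, limma, adjusted p = 5.9e-05). Between hairpins BISPR had a log2 change of 0.09 (limma, adjusted p = 0.68). MVB12A, a sorting-complex gene 111 bases from BST2, had a log2 change of 0.02 in radioresistant cells (limma, adjusted p = 0.95) and fell by 0.44 after knockdown (limma, adjusted p = 4.1e-04). TMEM221, 29879 bases from BST2, fell by 0.53 in radioresistant cells (limma, adjusted p = 0.040). Use of strand is not given in the sources used here, so reads of overlapping or antisense transcripts cannot be told apart. CTSD, the protease cathepsin D, 2160 bases from IFITM10, rose by 1.15 in radioresistant cells (limma, adjusted p = 3.7e-04) and fell by 0.54 after knockdown (limma, adjusted p = 2.1e-06). Next to the cluster, PGGHG, named ATHL1 in the tables, fell in radioresistant cells (-0.63; limma, adjusted p = 0.026) and after knockdown (-0.48; limma, adjusted p = 0.013), and B4GALNT4 fell in radioresistant cells (-1.91; limma, adjusted p = 6.4e-05), a direction fixed by its level in control cells. IFITM5, a relative 8290 bases from IFITM2, was at 0 in radioresistant and both hairpin groups. No neighbour of LY6E passed the filter.

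No deposited ATAC-seq summit of radioresistant cells lay near a member. The radioresistant library, with 12877 summits, had none within 10 kb of any member, although 42.1% of 21797 genes had one there. Its nearest lay 14.1 kb from BST2 and 34.2 kb from LY6E. The control library, with 2454 summits, had 1 in the cluster at position 319228 of chromosome 11, 448 bases from IFITM3, 3956 from IFITM1 and 9833 from IFITM2, with a −log10 q-value of 4.89, where 9.83% of genes had a summit within 10 kb. With 1 library a condition, no depth and unlike numbers of summits, these lists allow no test, and a missing summit does not show closed chromatin.

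Marker genes were set beside these values. PTPRC, the gene of the leukocyte antigen CD45, averaged at most 0.0381 TPM in any group, and AIF1, CD3E, MS4A1 and C1QA were at 0 throughout. The 12 immune markers summed to 19.8 to 24.5 TPM in radioresistant libraries and 16 to 21.3 TPM in control libraries, and to 14.3 to 18.1 TPM in shIFI16 libraries and 37.8 to 40.6 TPM in shNC libraries, nearly all from CD68. The 5 endothelial markers summed to 4.87 to 5.12 TPM in radioresistant libraries and 12.7 to 14.7 TPM in control libraries, and to 11.7 to 14.4 TPM in shIFI16 libraries and 6.02 to 6.68 TPM in shNC libraries. The 8 glial markers summed to 5958 to 6433 TPM in radioresistant libraries and 13889 to 14104 TPM in control libraries, and to 5020 to 5859 TPM in shIFI16 libraries and 6876 to 7505 TPM in shNC libraries. None was at 0 in any group, and vimentin gave most of the sum, at 5640 TPM in radioresistant cells, 8822 TPM in control cells, 4649 TPM in shIFI16 cells and 6526 TPM in shNC cells. GFAP averaged 80.6 TPM in radioresistant cells and 4011 TPM in control cells, and 31.1 TPM in shIFI16 cells and 1.73 TPM in shNC cells, so this marker was low in shNC cells. SOX2 averaged 149 TPM in radioresistant cells and 420.2 TPM in control cells, and 385 TPM in shIFI16 cells and 342 TPM in shNC cells. The part of these markers in the members' levels was not tested. IFI16 itself had 7.68, 7.90 and 6.71 TPM in shIFI16 libraries, against 125, 140 and 127 TPM in shNC libraries. Its levels were 250.8, 309 and 243 TPM in radioresistant libraries, against 70.3, 71.1 and 49.6 TPM in control libraries. Replicates of a group correlated at r = 0.970 to 0.987 over genes.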

How the data were processed

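RNA-seq and ATAC-seq of U251MG cells were used as deposited. Per the labels' protocols, Trizol RNA went into NEBNext Ultra mRNA libraries. The deposited tables are named as counts, but their values are TPM: each column sums to 1000000 and the values are not whole. The submitters' processing notes name the build hg38 and featureCounts, Cufflinks 2.2.1, TopHat and Trim Galore 0.6.6, and for ATAC-seq also MACS2 2.1.4, SAMtools 1.10 and Bowtie2 2.2.5. Not given in the sources used here are the tool behind the TPM, the annotation and the strand setting. For each ATAC-seq library the authors deposited a summit list, whose score is a −log10 q-value by the file's layout.

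Groups came from the labels, but columns carry codes. The prefixes of the ATAC-seq lists gave UR as radioresistant and UN as control, and URS was taken as shIFI16 and URN as shNC. Low IFI16 in URS went with this reading; control and radioresistant columns had no such check. TPM keeps no depth, so no counting interval was given, and limma 3.58.1 in R 4.3.3 was used on log2(TPM + 1), with trend and robust variance, in place of count tests. A gene was tested where 3 or more of the 6 libraries held 1 TPM or more, with Benjamini-Hochberg adjustment over all genes tested in a table, and 28 rows named as dates were left out. Changes on this scale understate those of low genes. Distances from ATAC-seq summits were taken to the gene span and not to the start as planned, since strand was at hand for only 3 members. The code was tested on simulated data.

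The members, gene lists and tests were chosen with earlier results of these data known. Named genes were the members, IFI16, the 3 smallest p-values per list and comparison, the 3 nearest genes by Pearson's r, and neighbours within 50 kb; others that passed in a list, and markers, were named after their values were seen. Alternatives were a pseudocount of 0.1, no filter, median-ratio scaling, quantile normalization, the replicate number as a block and leaving out each library. Some items are not reported here.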

Additional observations from a re-analysis of the deposited data

How the results depend on the processing

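Tested members kept their direction under every alternative run in both comparisons. The log2 change of IFITM10 in radioresistant cells was 2.64 with a pseudocount of 0.1, against 1.48 with 1. Leaving out 1 library gave 5.12 to 5.36 for IFITM1, 1.62 to 1.95 for IFITM2, 3.41 to 3.58 for IFITM3, 1.44 to 1.52 for IFITM10, 6.75 to 6.96 for LY6E and 3.13 to 3.27 for BST2 in radioresistant cells. After knockdown it gave 1.19 to 1.30 for IFITM1, 1.10 to 1.27 for IFITM2, 0.22 to 0.32 for IFITM3, 0.11 to 0.22 for LY6E and 0.11 to 0.24 for BST2. Then 5 to 6 members passed in radioresistant cells, as IFITM10 fell under the filter without a radioresistant library. With 1 library left out, 3 to 4 members passed after knockdown, where IFITM10 was not tested. Under median-ratio scaling 2 passed after knockdown. With no filter, 1 other interferon-stimulated gene fell in radioresistant cells, against 0, and 1 rose after knockdown, against 3. TMEM91 ranged over -0.54 to 0.14 when 1 library was left out and turned to 0.11 without control replicate 3 and 0.14 without radioresistant replicate 3. Median-ratio scaling moved the median of all genes by 0.11 and the calls in radioresistant cells to 2954 higher and 2960 lower, against 2220 and 3542. In ATAC-seq, the control library had a summit near 1 member at 2 kb and near 0 at a score of at least 10, against 3, and the radioresistant library near 2 at 50 kb, against 0. The cause of these shifts was not tested.

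Replicate numbers were not shown to pair libraries: deviations of same-numbered libraries correlated at -0.377, 0.245 and 0.0810 in the first table and 0.215, 0.0881 and 0.0278 in the second, and not every library correlated best with its own number. With the replicate block, calls numbered 5572 against 5762 for radioresistant cells and 5610 against 4140 after knockdown, where 6 other interferon-stimulated genes rose, against 3, and 4 members passed, against 3. The other 86 summary values from alternatives that kept every library stayed close to the reported ones. TPM gives no depth, so how far counting limits low genes such as IFITM10 is unknown.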
